A study of Mus musculus with 43 samples.

Results

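Gene expression on day 7 was compared with that on day 3 of reprogramming in mouse fibroblasts transfected with siRNA against the 3 Myc family genes (siMyc). The comparison rests on 2 of the 43 libraries of the series, 1 per day. Both belong to a table of 9 libraries with altered Myc, and 12847 of the 21150 protein-coding genes in that table were kept, those that reached an FPKM of 1 in 2 or more of its 9 libraries. FPKM counts fragments scaled to the length of the transcript and to the mapped fragments of the library. A further 3 libraries of the table place the siMyc libraries: 1 of day 7 with scrambled siRNA (siControl day 7), and 2 of fibroblasts with scrambled siRNA (siControl MEF 1 and 2). The last pair carries 1 label and gives the only measure of replicate spread.

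All 5 libraries came from secondary mouse embryonic fibroblasts (MEF) of the Mbd3f/- OSK2nd system, so the controls carry the same Mbd3 genotype. Primary fibroblasts of chimeric Mbd3flox/- mice had received the doxycycline-inducible vector FUW-TetO-STEMCCA-OKS-mCherry, which encodes Oct4, Klf4 and Sox2 but no Myc, and the transactivator FUW-M2rtTA. Induced pluripotent stem cells (iPSC) from them were placed in BDF2 blastocysts, and the secondary MEF were isolated after that. How many iPSC clones contributed is not stated. Stealth siRNA for cMyc, nMyc and lMyc, or a control, was delivered with RNAiMAX on day -3 and on day 0, when doxycycline was added. The siMyc cells were collected on day 7 and day 3, the control cells on day 7 and as MEF, and no scrambled-siRNA library of day 3 was analysed here. The time since the last transfection and the time in doxycycline differ together between the days. The design text, which describes the OKSM courses, also places on day 3.5 a change of medium to serum replacement, with LIF and with MEK and GSK3 inhibitors added. The growth protocol gives an earlier addition of the inhibitors. Time, medium and wearing off of the siRNA cannot be told apart in this comparison.

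Myc, Mycn and Mycl encode helix-loop-helix transcription factors that pair with Max and bind E-boxes. They drive ribosome production, nucleotide and one-carbon metabolism and cell division. Myc is one of the classic reprogramming factors, and without it the induction of pluripotency by Oct4, Sox2 and Klf4 is slower. Reprogramming fibroblasts typically lose matrix and contractile genes early, gain epithelial genes next and switch on the endogenous pluripotency network last.

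The targeted genes were examined first. Myc (ENSMUSG00000022346, chromosome 15 at 61985391 to 61990374 in GRCm38, plus strand, 3 exons) had an FPKM of 11.0 in the siMyc library of day 7 and 29.2 in that of day 3, against 16.2 in the siControl library of day 7 and 30.5 and 26.5 in MEF 1 and 2. The day 7 value lay below all the others and the day 3 value between the 2 MEF values, so on day 3 the library labelled siMyc showed no lower Myc RNA than MEF. Mycn had an FPKM of 0.93 on day 7 and 1.87 on day 3, against 1.47 in siControl day 7 and 5.11 and 4.43 in MEF, and was thus lowest in the siMyc library of day 7. Mycl went against its label, with 3.31 on day 7 and 3.93 on day 3, against 1.03 in siControl day 7 and 1.65 and 1.29 in MEF. Both siMyc libraries lay above the 3 others. With 1 library per day these values do not set the degree of knockdown, and below "day 7" and "day 3" without further words mean the libraries labelled siMyc.

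Among the partners and antagonists of Myc, 12 of 13 network genes were kept. Max had an FPKM of 56.7 on day 7 and 58.1 on day 3, a difference of -0.04 in log2(FPKM + 1), the scale of every difference given here. Mga, a Max partner that represses, and Mxd1, a Max partner that competes with Myc, differed by 1.35 and 1.15. Mxd3, of the same antagonist family, differed by -1.52, as did Myc itself by -1.33. Mbd3, the NuRD subunit reduced in dose in these cells, had an FPKM of 61.8 on day 7 and 55.7 on day 3, against 54.8 in siControl day 7 and 67.0 and 63.7 in MEF. The siMyc values lay within or near the range of the other 3. The 3 induced factors were present on both days: Pou5f1 (Oct4) at 11.5 on day 7 and 6.74 on day 3, Sox2 at 57.7 and 44.4, and Klf4 at 45.1 and 41.5. In MEF, Pou5f1 was listed at 0 in both libraries and Sox2 was at 4.73 and 4.24, while Klf4 was at 35.7 and 33.6. These FPKM can include reads from the transgene.

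A gene is called higher or lower here when the difference between the 2 libraries is at least 1 on the log2(FPKM + 1) scale. That is a size and not a test, and no test was run on 1 library per day. By this rule 1378 genes were higher on day 7 than on day 3 (10.7% of genes kept) and 517 were lower (4.02%), 1895 in all (14.8%). The same rule called 75 genes (0.584%) in either direction between MEF 1 and MEF 2, where the root mean square difference was 0.24 and 99% of genes differed by less than 0.86. A difference of at least 2 was reached by 207 genes upward and 100 downward. The split between higher and lower depends on where 0 is set, because the median of all genes kept was 0.31. Relative to that median, 688 genes were higher and 916 lower, and after quantile normalization of the 9 libraries 688 were higher and 832 lower. The share of higher genes among those called was thus 72.7% as deposited, 42.9% relative to the median and 45.3% after quantile normalization. The difference also moved with transcript length. Its median was 0.12 in the fifth of genes with the shortest transcripts, then 0.24, 0.33 and 0.40, and 0.44 in the fifth with the longest. The same medians for day 3 minus the MEF mean were 0.01, -0.09, -0.18, -0.25 and -0.30, whereas for day 7 minus the MEF mean they lay between 0.12 and 0.15 in all 5. The part of length in single genes was not tested.

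**Figure D1:**
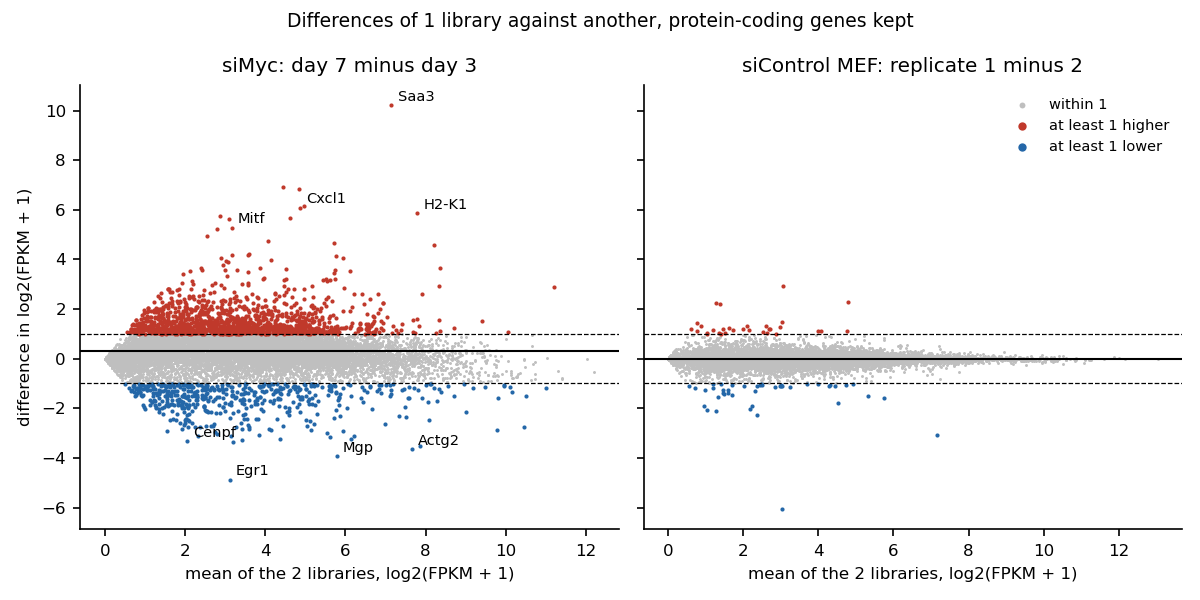
Difference in log2(FPKM + 1) against the mean level of the 2 libraries for 12847 protein-coding genes, left for siMyc day 7 minus day 3 and right for siControl MEF 1 minus MEF 2. Red and blue points are at least 1 higher or lower, dashed lines stand at 1 and -1, and the solid line is the median (0.31 on the left, -0.01 on the right); 1895 genes are coloured on the left and 75 on the right.

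Genes of the immune defence that interferon switches on were higher on day 7. Interferon signals through Stat and Irf factors, and its target genes include antiviral proteins and the parts of the antigen presentation pathway. All 24 of the 26 list members that were kept were called higher and 0 lower, with a median difference of 2.49 against 0.31 over all genes, and relative to that median 22 were higher. Their differences ran from 1.11 (Ifi35) to 5.85 (H2-K1). The other 2, Rsad2 and Mx1, had an FPKM under 1 in all 5 libraries. In a bulk library, fewer cells of a type and less RNA per cell cannot be told apart, here and below.

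Class I antigen presentation genes were among them. H2-K1 (chromosome 17 at 33996017 to 34000347, minus strand) had an FPKM of 1686 on day 7 and 28.2 on day 3, against 537 in siControl day 7 and 43.8 and 47.9 in MEF. Day 3 lay below both MEF libraries and day 7 above every other library. H2-D1, a second class I heavy chain, was at 1451 on day 7 and 59.1 on day 3, against 496 in siControl day 7 and 27.8 and 24.8 in MEF. B2m, the light chain common to both, was at 6424 on day 7 and 875 on day 3, against 2621 in siControl day 7 and 651 and 654 in MEF. The immunoproteasome subunit genes were likewise highest on day 7, with siControl day 7 next. Psmb8 was at 263 and 9.47 on day 7 and day 3, against 48.9 in siControl day 7 and 4.74 and 6.47 in MEF. Psmb9 was at 68.8 and 3.43, against 14.4 in siControl day 7 and 1.09 and 0.82 in MEF. Near-identical class I genes share reads, so the division among them is uncertain.

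Regulators and effectors of the pathway were also called higher. Irf7, a factor that amplifies the response, had an FPKM of 20.1 on day 7 and 3.28 on day 3, against 22.4 in siControl day 7 and 2.50 and 3.01 in MEF. Isg15, a ubiquitin-like protein, was at 60.1 and 7.12 on day 7 and day 3, against 32.1 in siControl day 7 and 6.16 and 6.24 in MEF. For Irf7 and Isg15, day 3 lay close to MEF and both day 7 libraries lay well above it. Of the 24 genes, 23 were higher in siMyc day 7 than in siControl day 7 at any size, Irf7 being the exception, with a median difference of 1.08.

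The promoters of 2 of these genes are shown because they carry the interferon-stimulated response element, here GAAA, any 2 bases and GAAA again on either strand, to which Stat and Irf factors bind. Each window runs from 250 bases before to 50 after the RefSeq start on GRCm38.p6 and is written 5' to 3' on the gene's strand, with the matches in capitals. Gbp3, an interferon-inducible GTPase, differed by 3.65, and Ifit1, a sensor of viral RNA, by 3.56.
Gbp3 (chr3:142559794-142560093, plus strand): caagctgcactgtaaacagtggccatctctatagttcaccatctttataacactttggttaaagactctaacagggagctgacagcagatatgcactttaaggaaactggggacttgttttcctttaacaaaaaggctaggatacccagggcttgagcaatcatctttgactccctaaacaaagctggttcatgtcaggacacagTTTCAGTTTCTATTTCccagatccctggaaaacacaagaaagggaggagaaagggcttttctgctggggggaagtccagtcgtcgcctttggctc
Ifit1 (chr19:34640639-34640938, plus strand): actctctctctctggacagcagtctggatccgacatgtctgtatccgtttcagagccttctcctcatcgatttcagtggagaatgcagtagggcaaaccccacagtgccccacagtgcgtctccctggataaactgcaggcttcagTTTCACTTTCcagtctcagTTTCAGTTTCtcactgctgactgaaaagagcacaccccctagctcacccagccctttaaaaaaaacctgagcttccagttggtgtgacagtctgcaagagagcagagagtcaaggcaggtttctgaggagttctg
In Gbp3 the capitals cover 2 overlapping matches that begin 45 bases before the start. Ifit1 holds 2 separate matches, the first of them 104 bases before the start. The element was found in 11 of the 23 list members with a window (47.8%), in 3.99% of all 27025 genes with a window and in 3.70% of the genes kept. A match of letters is a description and shows no binding. None of the marked matches in the windows printed shares bases with another motif searched.

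Chemokine and acute-phase genes were likewise higher on day 7. Of 21 inflammatory and secreted genes, all kept, 17 were called higher and 1 lower, with a median of 2.32, and relative to the median of all genes 15 were higher. Saa3 (ENSMUSG00000040026, chromosome 7 at 46711998 to 46715700, minus strand), an acute-phase serum amyloid, showed the highest difference of all genes named, 10.23. Its FPKM was 4914 on day 7 and 3.08 on day 3, against 4954 in siControl day 7 and 47.4 and 53.9 in MEF. Day 7 and siControl day 7 were nearly equal, and day 3 lay below MEF. Lcn2, an iron-binding acute-phase protein, was at 52.1 on day 7 and listed at 0 on day 3, against 55.3 in siControl day 7 and 0.17 and 0.47 in MEF.

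The neutrophil chemokine gene Cxcl1 had an FPKM of 238 on day 7 and 2.52 on day 3, against 554 in siControl day 7 and 5.21 and 7.99 in MEF. Cxcl5, of the same class, was at 84.9 and 2.25, against 417 in siControl day 7 and 6.63 and 6.17 in MEF. For both, siControl day 7 was the highest library and day 3 the lowest. The monocyte chemokine genes were highest on day 7. Ccl8 was at 173 on day 7 and 2.43 on day 3, against 93.1 in siControl day 7 and 1.16 and 0.55 in MEF. Ccl2 was at 1159 on day 7 and 91.1 on day 3, against 957 in siControl day 7 and 77.1 and 67.2 in MEF. Ccl5, which attracts T cells, was at 59.4 on day 7 and 0.23 on day 3, against 71.9 in siControl day 7 and 0 and 0.17 in MEF. Nos2, the inducible nitric oxide synthase, was at 41.4 and 0.13, against 45.5 in siControl day 7 and 0.04 and 0.06 in MEF. Cxcl12 was the 1 member called lower, at 21.6 on day 7 and 167 on day 3, against 65.7 in siControl day 7 and 214 and 203 in MEF.

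Markers of macrophages and blood did not move with these genes as a group. Of 8 such markers 4 had an FPKM of at least 1 on day 7 and 4 on day 3, against 7 in siControl day 7 and 7 in each MEF library. Their summed FPKM was 30.6 on day 7 and 22.5 on day 3, against 37.8 in siControl day 7 and 56.7 and 69.4 in MEF. Ptprc, the pan-leukocyte gene, was at 0.01 and 0.08 on day 7 and day 3, and Adgre1, a macrophage surface gene, at 0.13 and 0.06. Cd68, a lysosomal protein that other cells also make, was the 1 marker called higher, with a difference of 1.99. Lyz2 and Tyrobp were called lower.

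Readouts of the cytokine factor LIF, a supplement of the medium in this series, were mixed. Of 10 genes of the LIF and Stat3 pathway, 4 were called higher and 0 lower, with a median of 0.33. Il6st, the receptor subunit gp130, had an FPKM of 181 on day 7 and 28.7 on day 3, against 184 in siControl day 7 and 175 and 123 in MEF. Only day 3 stood apart, below the other 4 libraries. Socs3, the feedback inhibitor, was at 94.2 and 19.14, against 85.3 in siControl day 7 and 36.2 and 29.9 in MEF. Bcl3 was at 85.2 and 14.3, against 91.3 in siControl day 7 and 36.0 and 31.1 in MEF. Stat3 itself was at 122 and 51.3, against 119 in siControl day 7 and 109 and 90.5 in MEF. In these 4 genes day 3 lay below MEF, whereas Pim1, Pim3 and Junb differed by -0.60, -0.66 and -0.26.

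Contractile and TGF-beta-responsive genes were lower on day 7. They encode smooth muscle actins, their regulators and secreted proteins typical of activated fibroblasts. Of 16 members, 12 were called lower and 0 higher, with a median of -2.32, and relative to the median of all genes 14 were lower. All 16 differences were below 0. Actg2 (chromosome 6 at 83512905 to 83536265, minus strand), the enteric smooth muscle actin, had an FPKM of 55.4 on day 7 and 713 on day 3, against 55.5 in siControl day 7 and 143 and 134 in MEF. Myh11, the smooth muscle myosin heavy chain, was at 1.85 and 28.6, against 0.68 in siControl day 7 and 4.10 and 4.11 in MEF. In both, day 3 was the highest library and both day 7 libraries lay below MEF. Cnn1, Tagln and Acta2 differed by -3.10, -2.86 and -2.75. On day 3, 15 of the 16 genes lay above both MEF libraries, and on day 7, 15 lay below both. The actin genes are close in sequence, so reads may be divided among them with error.

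Desmin (Des), an intermediate filament of muscle, moved with this group, at 22.0 on day 7 and 214 on day 3, against 33.9 in siControl day 7 and 78.0 and 78.8 in MEF. The skeletal muscle factors Myod1 and Myog were listed at 0 on day 7 and at 0.02 and 0.17 on day 3.

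Matrix and fibroblast identity genes went both ways. Of 34 members, 5 were called higher and 6 lower, with a median of -0.13, and relative to the median of all genes 3 were higher and 11 lower. Mgp, matrix Gla protein, had an FPKM of 13.03 on day 7 and 214 on day 3, against 56.1 in siControl day 7 and 412 and 408 in MEF. Thy1, a fibroblast surface protein, was at 79.0 and 411, against 172 in siControl day 7 and 427 and 391.8 in MEF. Both were lowest on day 7. Col1a1, a chain of type I collagen, was called lower too, at 486 on day 7 and 1063 on day 3, against 1274 in siControl day 7 and 1359 and 1572 in MEF. Twist1 and Zeb1, which encode mesenchymal transcription factors, were among the 5 called higher. Twist1 was at 124 on day 7 and 54.1 on day 3, against 110.1 in siControl day 7 and 112 and 109.98 in MEF. Zeb1 was at 23.5 and 7.08, against 23.2 in siControl day 7 and 14.4 and 14.7 in MEF. For these factors day 3 was the lowest library and day 7 lay above MEF. Dcn, the proteoglycan decorin, was at 197 on day 7 and 69.0 on day 3, against 559 in siControl day 7 and 262 and 264 in MEF. Of the 10 fibroblast markers, all were above an FPKM of 1 on both days, with sums of 2545 on day 7 and 4140 on day 3, against 5867 in siControl day 7 and 5164 and 5600 in MEF. A sum weights the abundant members most. Of the 10, 2 were called higher and 3 lower, and the median difference was 0.40.

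Most targets of MEK and ERK were lower on day 7. The sources differ on when a MEK inhibitor was added, and its part in these values was not tested. Of 16 members, 9 were called lower and 1 higher, with a median of -1.23, and 10 were lower relative to the median of all genes. Egr1 (ENSMUSG00000038418), an immediate early factor, showed the lowest difference of all genes named, -4.88. Its FPKM was 0.59 on day 7 and 45.8 on day 3, against 0.53 in siControl day 7 and 32.6 and 53.4 in MEF. Both day 7 libraries were near the bottom of the scale and day 3 lay within the MEF pair. The feedback phosphatase genes Dusp5 and Dusp6 differed by -1.67 and -1.37, and the feedback inhibitor Spry4 by -1.61. Fos differed by -2.14 but also by -0.97 between MEF 1 and MEF 2. Ier3, called higher at 1.02, differed by -0.73 within the MEF pair, and Ccnd1 and Dusp4 differed by 0.46 and -0.36. Axin2, the feedback target of WNT signalling that GSK3 inhibition raises, was at 18.2 on day 7 and 1.34 on day 3, against 12.2 in siControl day 7 and 4.73 and 9.59 in MEF. Axin2 also differed by -0.89 within the MEF pair. It was the 1 called of 9 WNT targets kept (11.1%), against 10.7% of all genes kept called higher. The median of the 9 was 0.70, and all 9 differences were above 0.

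**Figure D2:**
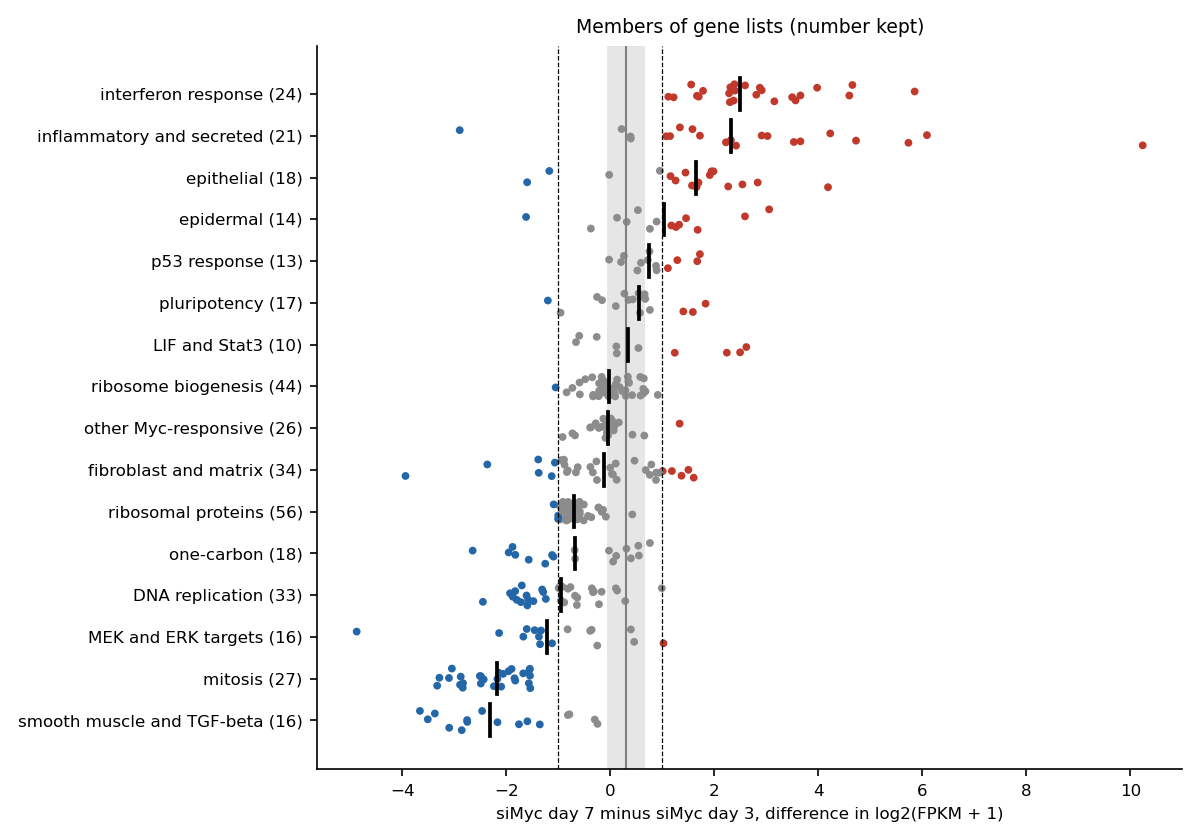
Difference in log2(FPKM + 1), siMyc day 7 minus day 3, of each member of 16 gene lists (points; red and blue at least 1 higher or lower), with the list median as a black bar. The grey line and band give the median (0.31) and the middle 50% of all genes kept, and dashed lines stand at 1 and -1. All interferon members lie right of 1 and all mitosis members left of -1, while ribosome biogenesis genes centre on -0.03.

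Genes of cell division were lower on day 7. The mitosis list holds cyclins, kinases of the spindle checkpoint and centromere proteins, which peak before cells divide. All 27 members were called lower and 0 higher, with a median of -2.17, and all 27 were lower relative to the median of all genes. The differences ran from -1.54 (Nusap1) to -3.33 (Cenpf). Cenpf, a kinetochore protein, had an FPKM of 0.30 on day 7 and 12.1 on day 3, against 0.73 in siControl day 7 and 12.7 and 8.37 in MEF. Plk1, the polo-like kinase of mitosis, was at 2.01 and 24.8, against 5.57 in siControl day 7 and 26.0 and 26.6 in MEF. Mki67, the Ki-67 proliferation antigen, was at 0.68 and 8.40, against 1.54 in siControl day 7 and 12.9 and 13.2 in MEF. Day 3 lay within the MEF pair for Cenpf, just below it for Plk1 and below it for Mki67, and in all 3 genes both day 7 libraries lay far below MEF, the siMyc library lowest. Of the 27 genes, 25 were lower in siMyc day 7 than in siControl day 7 at any size, with a median difference of -0.53.

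The windows of Cenpf and Cenpa, the centromeric histone H3 variant, are shown because both hold the cell cycle genes homology region (CHR), TTTGAA on either strand, to which the MuvB complex binds. The RefSeq windows follow the same rule and build as above, with the match in capitals.
Cenpf (chr1:189688037-189688336, minus strand): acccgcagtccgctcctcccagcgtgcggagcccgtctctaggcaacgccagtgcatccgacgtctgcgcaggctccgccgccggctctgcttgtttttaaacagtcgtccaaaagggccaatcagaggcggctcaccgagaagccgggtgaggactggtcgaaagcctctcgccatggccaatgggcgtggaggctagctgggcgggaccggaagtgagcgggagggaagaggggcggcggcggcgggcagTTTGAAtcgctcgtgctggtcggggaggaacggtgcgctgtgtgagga
Cenpa (chr5:30666636-30666935, plus strand): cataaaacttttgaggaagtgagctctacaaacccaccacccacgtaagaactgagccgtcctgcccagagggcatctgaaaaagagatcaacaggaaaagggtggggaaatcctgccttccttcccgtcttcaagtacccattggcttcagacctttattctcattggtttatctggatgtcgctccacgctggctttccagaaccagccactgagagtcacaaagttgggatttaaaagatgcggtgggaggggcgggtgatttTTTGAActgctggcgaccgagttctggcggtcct
The match lies 2 bases after the start in Cenpf and 16 after it in Cenpa. CHR letters were found in 15 of the 22 mitosis genes with a window (68.2%), in 20.2% of all genes with a window and in 14.1% of genes kept. Cenpa had an FPKM of 2.45 on day 7 and 32.6 on day 3, against 6.16 in siControl day 7 and 43.9 and 44.7 in MEF.

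DNA replication genes lay on the same side with smaller differences. Of 33 members, all kept, 14 were called lower and 0 higher, with a median of -0.95, and 21 were lower relative to the median of all genes. Tk1, the thymidine kinase of S phase, was at 5.07 on day 7 and 32.1 on day 3, against 13.3 in siControl day 7 and 29.9 and 26.3 in MEF. Mcm6 and Mcm5, subunits of the replicative helicase, differed by -1.93 and -1.88, and Rfc1, of the clamp loader, by 0.99. On day 7, 32 of the 33 lay below both MEF libraries. Among inhibitors and D-type cyclins, 0 of 10 were called in either direction. Cdkn1a (p21), the largest of them, was at 694 on day 7 and 377 on day 3, against 748 in siControl day 7 and 274 and 281 in MEF. Of 13 p53 response genes 4 were called higher and 0 lower, with a median of 0.75, and 2 remained past 1 relative to the median of all genes. Mdm2, the ligase that degrades p53, was at 232 on day 7 and 72.2 on day 3, against 104 in siControl day 7 and 79.7 and 74.9 in MEF.

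Of the gene lists tied to Myc activity, ribosome biogenesis and the list of other Myc-responsive genes differed little. Cell division genes (above) and some one-carbon genes (below), also tied to Myc, were lower on day 7. Of 44 ribosome biogenesis genes, all kept, 0 were called higher and 1 lower, with a median of -0.03, below the median of all genes. Gar1, a snoRNP protein, was the 1 called, at 33.0 on day 7 and 69.5 on day 3, against 34.3 in siControl day 7 and 53.1 and 45.6 in MEF. Npm1, the nucleolar chaperone nucleophosmin, was at 182 and 275, against 180 in siControl day 7 and 317 and 319 in MEF. Of these 44 genes, 36 were higher in siMyc day 7 than in siControl day 7 at any size, with a median of 0.16. Of 26 other Myc-responsive genes 1 was called higher and 0 lower, with a median of -0.05. That gene was Tfrc, the transferrin receptor, at 16.4 on day 7 and 5.92 on day 3, against 11.2 in siControl day 7 and 7.52 and 9.15 in MEF. The E-box CACGTG was found in 11 of the 24 of these genes with a window (45.8%), in 8.09% of all genes with a window and in 11.8% of genes kept. The median difference was -0.04 with it and 0.01 without it. Ribosomal protein genes had a median of -0.69, with 3 of 56 called lower and 0 higher, and 27 lower relative to the median of all genes. Of the 56 differences, 55 were below 0. Unlike the ribosome biogenesis genes, 54 of the 56 were lower in siMyc day 7 than in siControl day 7 at any size, with a median of -0.34. They are short and abundant, and the median of day 7 minus day 3 was lowest, at 0.12, in the fifth with the shortest transcripts. Relative to the MEF mean, the ribosomal protein median was -0.13 on day 3, -0.82 on day 7 and -0.47 in siControl day 7. The medians by length for day 7 minus the MEF mean lay between 0.12 and 0.15, without such a trend. The part of length and level in the ribosomal protein values was not tested.

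One-carbon metabolism, which supplies nucleotide synthesis, was lower on day 7 in some of its genes. Of 18 members 8 were called lower and 0 higher, with a median of -0.68. The serine synthesis gene Phgdh was at 13.8 on day 7 and 91.5 on day 3, against 11.96 in siControl day 7 and 48.4 and 48.8 in MEF, and Psat1, of the same route, differed by -1.88. The mitochondrial folate enzyme genes Mthfd2 and Shmt2 differed by -1.83 and -1.57. Both lay below MEF in both day 7 libraries and near it or somewhat below it on day 3. Shmt1, the cytosolic counterpart of Shmt2, differed by -1.95, at 1.42 on day 7 and 8.38 on day 3. Mthfd1 and Ahcy, not called, differed by 0.31 and 0.55. Of 24 glycolysis genes 1 was called higher (Aldoc, 1.13) and 0 lower, and of 31 oxidative phosphorylation genes 0 were called in either direction.

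Epithelial genes were higher on day 7. The list holds tight junction claudins, cadherin, keratins and proteases of the epithelial surface, which reprogramming cells gain in the mesenchymal-to-epithelial transition. Of 22 members 18 were kept, of which 14 were called higher and 2 lower, with a median of 1.66, and 12 were higher relative to the median of all genes. The 4 not kept, Grhl2, Rab25, Ovol1 and Esrp1, were below an FPKM of 1 on both days. An FPKM of at least 1 was reached by 18 of the 22 on day 7 and 10 on day 3, against 20 in siControl day 7. Of the 18 kept, 13 were lower in siMyc day 7 than in siControl day 7 at any size, with a median difference of -0.45. Cldn4 (chromosome 5), a claudin, had an FPKM of 49.8 on day 7 and 1.79 on day 3, against 53.7 in siControl day 7 and 0.38 and 0.38 in MEF. Crb3, a polarity protein, was at 20.04 and 1.95, against 19.6 in siControl day 7 and 0.08 and 0.19 in MEF. Cdh1, E-cadherin, was at 11.4 and 2.95, against 19.0 in siControl day 7 and 0.09 and 0.01 in MEF. Each was intermediate on day 3 and high in both day 7 libraries. Epcam, a surface protein of epithelia and iPSC, remained low at 2.95 and 0.22, against 3.99 in siControl day 7 and 0.11 and 0.21 in MEF. Krt18 and Krt19, keratins of simple epithelia, were the 2 called lower, while Krt8, the partner of Krt18, was called higher at 1.44.

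Keratinocyte markers moved with the epithelial genes. Of 7 such markers 4 were at an FPKM of at least 1 on day 7 and 4 on day 3, and 3 of the 5 kept were called higher, of which 1 remained relative to the median of all genes. Their summed FPKM was 390.4 on day 7 and 168 on day 3, against 299.9 in siControl day 7 and 19.2 and 22.4 in MEF. Krt14 was at 152 on day 7 and 60.2 on day 3, against 161 in siControl day 7 and 5.13 and 5.79 in MEF. The basal markers Trp63 and Krt5 were at 0.01 and 0.71 on day 7 and at 0.05 and 0.18 on day 3. Of 14 epidermal genes kept, 7 were called higher and 1 lower, with a median of 1.03, and 5 were higher relative to the median of all genes, the highest being Sprr1a, a cornified envelope protein, at 33.4 and 3.14. The part of keratinocyte-type genes in the epithelial values was not tested.

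Most endogenous pluripotency genes stayed near the bottom of the scale. Of 30 members, 17 were kept, and over these 3 were called higher and 1 lower. The median was 0.54, against 0.31 over all genes kept, and relative to that median 3 were higher and 2 lower. An FPKM of at least 1 was reached by 10 of the 30 on day 7 and 7 on day 3, against 5 and 4 in MEF. On day 7, 20 of the 30 had an FPKM under 1, as did 23 on day 3 and 16 in siControl day 7. Nanog, the core homeobox factor, was at 0.13 on day 7 and 0.35 on day 3, against 1.63 in siControl day 7 and 0.42 and 0.26 in MEF. Esrrb, an orphan nuclear receptor, was at 0.50 and 0.10, and Zfp42 (Rex1), a zinc finger marker of naive cells, at 0.82 and 0.51. These are differences between levels at which an FPKM says little. The 3 called higher were Dnmt3l, a cofactor of DNA methylation, at 2.70 and 0.04, against 3.71 in siControl day 7 and 0.33 and 0.49 in MEF, the uridine phosphorylase gene Upp1 at 22.6 and 6.87, and Dppa5a at 1.65 and a listed 0. L1td1, an RNA-binding protein of early embryos, was already at 14.2 on day 3 and at 21.9 on day 7, against 19.09 in siControl day 7 and 0 and 0.02 in MEF. Klf2, a Kruppel factor of naive cells that MEF also express, was called lower, at 7.03 on day 7 and 17.5 on day 3, against 14.4 in siControl day 7 and 22.8 and 23.1 in MEF.

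Crb3 and Dnmt3l are the epithelial and the pluripotency gene with the largest differences among named genes whose RefSeq window holds the Myc E-box, CACGTG, in capitals. The letters stand 21 bases after the start in Crb3 and 44 before it in Dnmt3l.
Crb3 (chr17:57061981-57062280, plus strand): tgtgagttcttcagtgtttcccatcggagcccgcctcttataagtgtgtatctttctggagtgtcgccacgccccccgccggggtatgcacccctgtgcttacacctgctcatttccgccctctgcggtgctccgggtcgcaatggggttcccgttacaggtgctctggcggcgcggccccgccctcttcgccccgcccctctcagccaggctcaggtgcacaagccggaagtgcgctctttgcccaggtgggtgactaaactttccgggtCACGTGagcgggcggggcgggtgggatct
Dnmt3l (chr10:78049592-78049891, plus strand): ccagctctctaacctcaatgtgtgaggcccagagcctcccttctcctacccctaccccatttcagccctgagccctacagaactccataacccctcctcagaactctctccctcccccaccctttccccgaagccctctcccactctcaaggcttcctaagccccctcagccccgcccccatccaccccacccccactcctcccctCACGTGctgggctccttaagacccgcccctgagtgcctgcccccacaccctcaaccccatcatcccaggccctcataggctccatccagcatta
Of the 1378 genes called higher, 1011 had a window and 11.8% of those held the E-box, and of the 517 called lower, 372 had a window and 9.41% held it, against 11.8% of all genes kept.

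The same 2 days were measured with a cassette that also encodes Myc (OKSM) in Mbd3f/- and Gatad2a-/- cells, 1 library per day, on human foreskin fibroblast feeders per the labels. These tables were normalized separately, so differences within a table are set side by side. Over all 30 pluripotency genes, whether kept or not, the median difference between day 7 and day 3 was 0.32 in siMyc cells, 4.16 in Mbd3f/- cells and 3.70 in Gatad2a-/- cells. At least 1 higher were 3 genes in siMyc, 26 in Mbd3f/- and 25 in Gatad2a-/- cells. Over all genes kept the share at least 1 higher was 10.7% in siMyc, 11.8% in Mbd3f/- and 6.6% in Gatad2a-/- cells. Nanog differed by -0.26, 4.14 and 3.87 in the same order, and Klf2 by -1.20, 4.80 and 5.14. Against siControl day 7, which has the same OKS cells, siMyc day 7 differed by less than 1 in 14 of the 17 pluripotency genes kept. The median of that difference was -0.14, with 1 called higher and 2 lower, over a range from -1.30 to 1.05. Nanog was 1 of the 2 lower, at -1.22. Of all 12847 genes kept, 330 were higher, 496 lower and 12021 neither. An FPKM of at least 1 was reached by 10 of the 30 pluripotency genes in siMyc day 7 and 14 in siControl day 7. Cassette, siRNA, feeders and cell system differ together, and the interval with the scrambled siRNA was not measured here. What sets the siMyc cells apart from the OKSM cells therefore cannot be told.

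**Figure D3:**
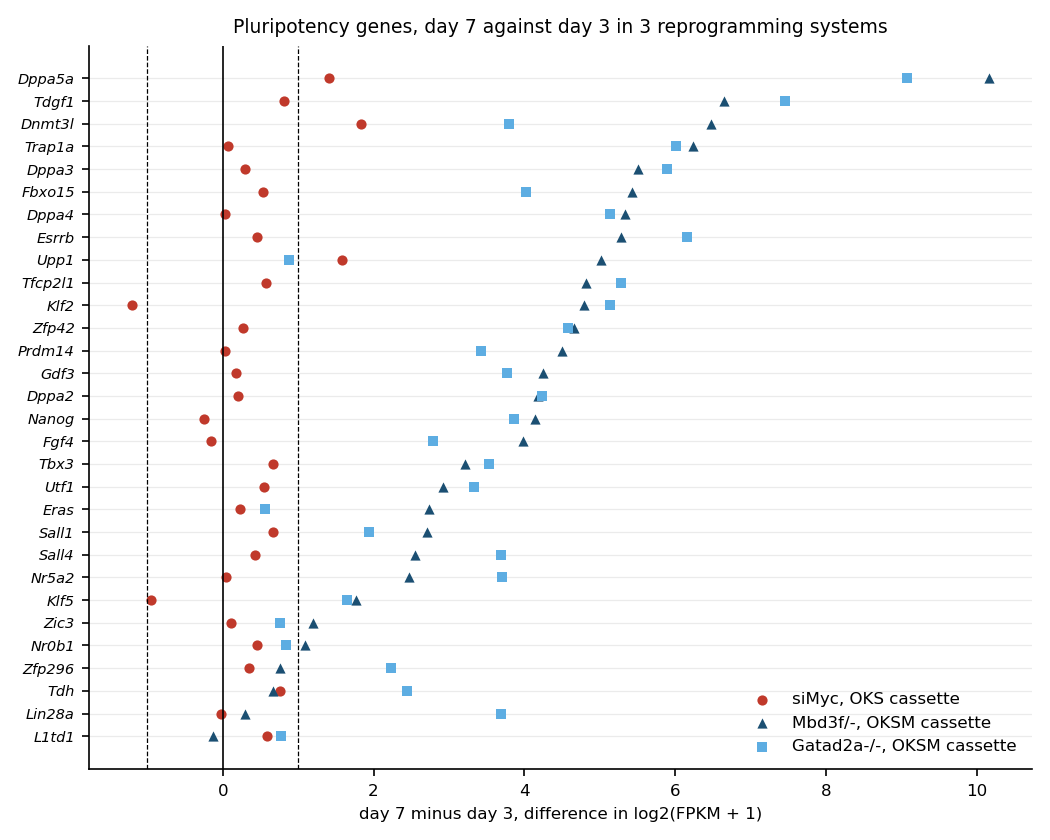
Difference in log2(FPKM + 1) between day 7 and day 3 for 30 pluripotency genes in siMyc cells with the OKS cassette (red circles), Mbd3f/- cells (dark blue triangles) and Gatad2a-/- cells (light blue squares) with the OKSM cassette, 1 library per day. Red circles lie between -1.20 and 1.83, most near 0, while most blue symbols lie right of 1.

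The end points of the 4 course tables gave wider gene sets. Genes at least 2 higher in iPSC than in MEF in each of the 4 numbered 404, and genes at least 2 lower numbered 611. The Mbd3f/- and Gatad2a-/- tables are among the 4, so both sets were chosen on changes in those systems. No siMyc library took part in the choice, which favours larger differences in Mbd3f/- and Gatad2a-/- cells. Over all 404 iPSC-high genes the median difference between day 7 and day 3 was 0.04 in siMyc cells, against 1.69 in Mbd3f/- and 1.20 in Gatad2a-/- cells. An FPKM of at least 1 was reached by 217 of the 404 on day 7 and 208 on day 3, against 236 in siControl day 7 and 194 and 197 in MEF. In Mbd3f/- cells 397 reached it on day 7 and 282 on day 3. Among the 282 that passed the filter on low values, 35 were called higher and 40 lower in siMyc cells. Over the 611 MEF-high genes, all kept, the median was 0.04 in siMyc cells with 64 called higher and 81 lower, against -0.64 in Mbd3f/- and -1.04 in Gatad2a-/- cells. Both siMyc medians are below the median of all genes, 0.31, and relative to it they turn negative, -0.27 for each set.

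The difference between day 7 and day 3 was set beside that between siControl day 7 and the MEF mean, which uses no library in common with it. Of the 1378 genes called higher, 471 were also called higher there, which is 34.2% of the siMyc genes and 49.1% of the 959 control genes (7.46% of genes kept). Of the 517 called lower, 273 were also lower there, 52.8% of the siMyc genes and 42.1% of the 649 control genes (5.05%). Of the siMyc genes called higher 13 were lower there, and of those called lower 17 were higher there. Across the 12847 genes the Pearson correlation of the 2 differences was 0.58, against 0.13 with Mbd3f/- and 0.07 with Gatad2a-/- day 7 minus day 3. These correlations are unlike. The control difference shares the table and cell system but starts from MEF. The OKSM differences come from separately normalized tables, with another cassette and other feeders. Genes are not independent replicates.

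Of the other large differences, those of Mitf and Upk3b were not shared with siControl day 7, and those of Steap4, Dlk1 and Igf2 were. Mitf (ENSMUSG00000035158, chromosome 6 at 97807052 to 98021349, plus strand, 10 exons), a transcription factor of melanocytes that also controls lysosome genes, had an FPKM of 54.7 on day 7 and 0.43 on day 3, against 1.02 in siControl day 7 and 1.17 and 0.96 in MEF. It was high in 1 of the 5 libraries only. Upk3b, a uroplakin of the mesothelium, was at 5.73 on day 7 and 62.8 on day 3, against 78.6 in siControl day 7 and 91.4 and 96.6 in MEF. Here day 7 alone was low. Steap4, a metalloreductase induced in inflammation, was at 31.7 and 0.05, against 50.1 in siControl day 7 and 1.07 and 1.297 in MEF, and thus high in both day 7 libraries. The growth regulators Dlk1 and Igf2, both imprinted, differed by -3.17 and -1.51. Dlk1, a Notch ligand relative, was at 15.3 on day 7 and 146 on day 3, against 20.9 in siControl day 7 and 769 and 739 in MEF. Igf2, a fetal growth factor, was at 866 and 2465, against 760.0 in siControl day 7 and 4156 and 4113 in MEF. Both were highest in MEF, intermediate on day 3 and lowest in the 2 day 7 libraries. Fabp7, a fatty acid carrier, differed by -3.13.

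**Figure D4:**
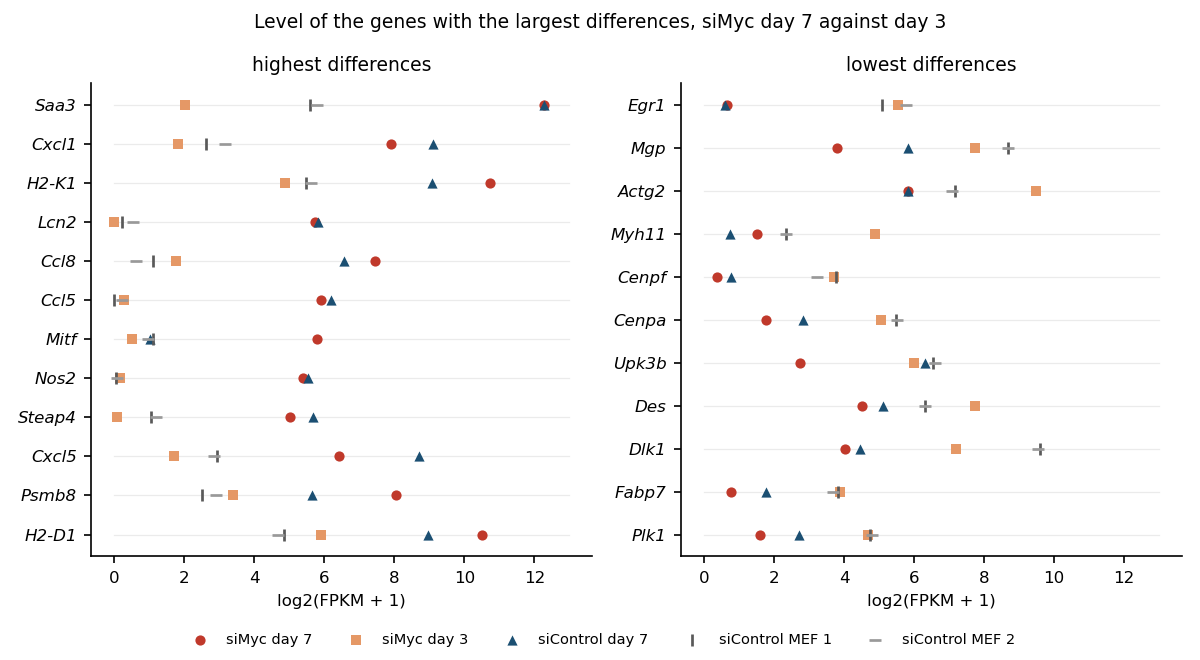
Level in log2(FPKM + 1) of the named genes with the highest and the lowest differences, siMyc day 7 minus day 3, in the 5 libraries with siRNA. Red circles (day 7) stand beside the blue triangles (siControl day 7) for most genes, and Mitf and Upk3b are the clearest exceptions, with siControl day 7 near the MEF bars.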

How the data were processed

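The authors deposited FPKM per gene with Ensembl identifiers, 1 table of 9 Myc libraries and 4 course tables. Poly(A) libraries were made with the TruSeq RNA kit v2, per the labels' protocols. CASAVA 1.8.2, TopHat2 2.0.10, Cufflinks 2.2.1 and mm10 are named in the submitters' processing notes, and the gene annotation and strand setting were not given in the sources used here. Genes that overlap or have near-identical copies are therefore uncertain. FPKM keep no read counts, so depth is unknown and no counting interval is given. All 37 mitochondrial genes were listed at 0, so a listed 0 need not mean that the RNA was absent. Why they were listed so was not examined, and no ratio is given against a listed 0. The number of value columns without a sample was 0.

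Differences of log2(FPKM + 1) were computed in Python 3.11.15 with pandas 2.3.3, which understates changes of low genes. No test was run, since each day has 1 library and the MEF pair is the 1 replicated group used here, and nothing says that the MEF libraries are separate cultures. Rows sharing an identifier (22) were summed. GENCODE M21 (GRCm38) gave biotype, coordinates and longest transcript length, and RefSeq promoter windows (GRCm38.p6) were searched with 4 motifs on both strands. These were the E-box, the interferon-stimulated element, CHR, and the GAS element (TTC and GAA parted by 3 bases), which is not described further. The difference script was tested on simulated data.

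Named genes are the 12 highest and 12 lowest differences with an FPKM of at least 5 in the higher library and a difference above that of the MEF pair. Predicted, clone-named and multi-copy genes were left out, and a few genes are not reported here. The Myc family, Max, Mbd3, Pou5f1, Sox2, Klf4, Nanog and up to 4 members per list were added, and other genes were chosen after their values were seen, as were the interferon and mitosis promoters. Members, the 41 lists and tests were chosen with earlier results of these data known.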

Additional observations from a re-analysis of the deposited data

Results flagged for a closer look

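A few differences between day 7 and day 3 in siMyc cells had the other sign in both OKSM systems, Mbd3f/- and Gatad2a-/- cells. Each is 1 library against 1, and none of these differences between systems was tested.

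The median over the 21 inflammatory and secreted genes was 2.32 in siMyc cells, against -0.26 in Mbd3f/- and -0.21 in Gatad2a-/- cells. The MEF spread of 0.24 is that of single genes in the siControl pair and does not measure the spread of a median. Over these 21 genes the median of MEF 1 minus MEF 2 was -0.02. No replicate pair gives the spread of the OKSM medians. Of the 21 genes, 1 in Mbd3f/- and 2 in Gatad2a-/- cells were called higher and 4 in each lower. Of all 12847 genes kept, 1519 and 848 were higher and 1451 and 1651 lower. Saa3 differed by -0.87 in Mbd3f/- and 4.53 in Gatad2a-/- cells. Klf2, a factor of naive pluripotency, differed by -1.20 in siMyc cells, against 4.80 in Mbd3f/- and 5.14 in Gatad2a-/- cells. The matrix proteoglycan gene Dcn differed by 1.5, against -2.64 and -1.59 in the same order of systems, and the mesenchymal factor gene Twist1 by 1.18, against -2.78 and -3.46. Tek, the angiopoietin receptor Tie2, differed by 1.19, against -1.98 and -3.45. Its FPKM was 8.66 on day 7 and 3.24 on day 3 in siMyc cells, while the other 5 endothelial markers were under 1 in both libraries. Kdr, the 1 of them kept, was at 0.13 on day 7 and 0.60 on day 3, and Emcn was listed at 0 on day 7 and was at 0.58 on day 3.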

How the results depend on the processing

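The size of the counts depends on the pseudocount, and the split between directions on the scaling. With a pseudocount of 0.1, 2160 genes were higher and 786 lower, and the medians were 0.83 (pluripotency), 2.61 (epithelial), -2.67 (mitosis) and 2.88 (interferon). With a pseudocount of 5, 548 genes were higher and 255 lower, and the medians were 0.15 (pluripotency), 0.81 (epithelial), -0.63 (DNA replication), -1.38 (mitosis), 1.94 (interferon) and 1.87 (inflammatory). Quantile normalization gave 688 higher and 832 lower genes and medians of -0.22 (iPSC-high), 0.29 (pluripotency), -1.30 (DNA replication), -2.50 (mitosis) and 1.91 (inflammatory). Relative to the median of all genes, 688 were higher and 916 lower. The medians were then -0.27 (iPSC-high), -0.27 (MEF-high), 0.24 (pluripotency), 1.35 (epithelial), -0.44 (fibroblast and matrix), -2.63 (smooth muscle), -1.26 (DNA replication), -2.48 (mitosis), 2.18 (interferon) and 2.01 (inflammatory). A filter at an FPKM of 5 gave an epithelial median of 1.91, and genes of every biotype that passed the usual filter gave 821 lower. A difference of at least 2 was reached by 207 genes upward and 100 downward. End point sets cut at 3 gave an iPSC-high median of 0.39. The centring and the thresholds move these values by construction, and for the others the cause was not tested.

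Over 158 named or listed genes, 696 of 1084 alternative values stayed within the MEF spread and 388 moved, and over 40 lists 185 of 278 did and 93 moved, with 0 called values changing sign. Leaving out either MEF library gave medians of -0.02 to 0 (iPSC-high) and -0.21 to -0.20 (MEF-high) for day 3 minus MEF. For siControl day 7 minus MEF the medians were 0.11 to 0.13 (iPSC-high) and -0.17 to -0.17 (MEF-high). No paired analysis was possible because each siMyc day has 1 library and no test was run. Depth is unknown, so precision at low FPKM could not be set.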

Other observations

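A second family of interferon-inducible genes, chosen after their values were seen, was higher on day 7 than in every other library. Iigp1, Igtp, Irgm1 and Irgm2 encode immunity-related GTPases, which act against intracellular pathogens. Iigp1 had an FPKM of 233 on day 7 and 19.2 on day 3, against 8.89 in siControl day 7 and 0.85 and 0.61 in MEF. Igtp was at 147 and 15.3, against 10.1 in siControl day 7 and 2.04 and 1.73 in MEF. Irgm1 and Irgm2 differed between day 7 and day 3 by 1.53 and 2.80. Tap1, the peptide transporter of antigen presentation, differed by 3.20, and Nlrc5, the transactivator of class I genes, by 2.54. Cd74, the invariant chain of class II molecules, was at 11.5 on day 7 and 0.19 on day 3, against 1.00 in siControl day 7 and 0.52 and 1.27 in MEF. For these genes siMyc day 7 stood at least 2 above siControl day 7 in log2(FPKM + 1).

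A group of genes chosen after their values were seen, some of them known from mesothelium, was lower on day 7 than in the other 4 libraries. Krt7, a simple keratin, was at 2.80 on day 7 and 18.8 on day 3, against 26.0 in siControl day 7 and 46.4 and 51.9 in MEF. Lrrn4 was at 0.82 and 11.4, against 17.1 in siControl day 7 and 32.9 and 35.6 in MEF. Rspo1, a WNT agonist, and Gpm6a, a membrane glycoprotein, differed between day 7 and day 3 by -2.48 and -1.98. Ptn, the growth factor pleiotrophin, was at 7.53 and 54.8, against 93.6 in siControl day 7 and 466 and 461 in MEF.

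Etf1, a translation release factor, was at 264 on day 7 and 54.5 on day 3, against 45.5 in siControl day 7, and at 48.5 in MEF 1 and 418 in MEF 2, so its spread within the MEF pair exceeds its difference between the days.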
